A study of Mus musculus with 21 samples.

Results

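The comparison described here set mouse macrophages that had received an isotype control protein for 12 h against untreated macrophages at 0 h. It rests on 6 of the 21 libraries of the study, 3 in each group, chosen by their titles alone, and on all 13468 genes with enough counts to be tested of the 23250 in the table. The cells of both groups were grown for 7 days from bone marrow of C57BL/6J mice in medium with supernatant of a cell line that makes GM-CSF, a growth factor for myeloid cells. Per the study's design text all of them lacked the mannose receptor, a lectin encoded by Mrc1, so the controls carry the same deficiency. The study asked how FcMR, the outer part of the mannose receptor fused to the Fc region of human IgG1, acts on such cells. The isotype control is its comparator, and the labels do not say what this protein is made of, at what dose it was given or how many animals the marrow came from. Untreated cells were collected at 0 h only, so in this comparison the control protein, its addition and 12 h of further culture cannot be told apart.

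Interferons are secreted alarm signals that myeloid cells make when they sense foreign or misplaced nucleic acids or microbial products. They act through cell-surface receptors and JAK kinases, and the interferon-stimulated genes that follow encode antiviral effectors, further sensors and the machinery that loads peptides onto MHC class I. Toll-like receptors and receptors for antibody Fc regions feed into NF-kB, which drives cytokine genes and also its own inhibitors, so many cytokine transcripts come and go within hours. In macrophages such signals commonly act on cholesterol synthesis, energy metabolism and proliferation as well.

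Counts per library ran from 9292540 to 19376498 in the untreated group and from 6676302 to 66729533 in the isotype 12 h group. The level that 3 counts stand for accordingly lay between 0.045 and 0.449 CPM (counts divided by the library total on a fixed scale), a floor that covers counting error only. Mrc1, the gene described as absent, had 3, 9 and 3 counts in the untreated libraries and 3, 0 and 10 in the isotype 12 h libraries, at most 0.464 CPM, and was too low to be tested. The first principal component of the 6 libraries held 72.8% of their variance and separated the groups. Nothing in the labels says that the 3 libraries of a group came from separate cultures or animals. The p-values below rest on the spread between libraries within groups, estimated over all 21 libraries, and that spread may be technical.

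Macrophage markers were present in both groups. The 10 listed summed to 24500 to 25400 CPM per library without treatment and to 23100 to 25200 CPM at 12 h. Of them 5 were higher at 12 h, 1 was lower and 4 did not pass the test. Adgre1 and Csf1r, both higher, were chosen after their values were seen. Adgre1, which encodes the macrophage surface protein F4/80, stood at 208 ± 17.9 CPM (SD, n = 3) without treatment and at 588 ± 31.1 CPM at 12 h, and Csf1r, the receptor for the macrophage growth factor CSF-1, at 820 ± 5.48 and 1220 ± 6.13 CPM. Levels here and below are CPM after TMM scaling, which corrects library totals for the makeup of each library. The defining genes of T cells were close to the floor, with Cd3d at 0.29 ± 0.174 CPM or less on average. The T cell, erythroid, NK cell and stromal lists each summed to at most 6.51 CPM in any of the 6 libraries. Dendritic cell markers were present, with sums of 1550 to 1670 CPM without treatment and 2400 to 2610 CPM at 12 h. Endothelial markers summed to 197 to 218 CPM without treatment and 159 to 173 CPM at 12 h. Genes of granulocytes and their precursors were present and lower at 12 h, as described further on.

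Of the genes tested, 5602 changed at an adjusted p-value under 0.05 in edgeR's quasi-likelihood test, 41.6% of them all, 2965 higher (22%) and 2637 lower (19.6%) with the isotype control at 12 h. The median log2 fold change over all genes tested was 0.03. A change of over 2-fold was found for 1252 higher genes (9.30%) and 999 lower genes (7.42%), and of over 16-fold for 92 (0.683%) and 49 (0.364%). In 61.8% of the genes tested the 3 libraries of 1 group all lay above the 3 of the other. The counts of members given below for each gene list are to be read against these shares.

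Saa3, an acute-phase serum amyloid gene expressed by activated macrophages, was measured at 8.55, 7.82 and 8.34 CPM in the untreated libraries and at 461, 485 and 565 CPM at 12 h. The groups lay far apart, and the difference was 5.94 ± 0.225 on the log2 scale (SE), a 61.3-fold rise with an edgeR adjusted p of 1.19e-12. Irf7, the transcription factor that amplifies interferon gene expression, went from 10.8, 8.33 and 8.26 CPM to 448, 469 and 529 CPM, a 53.1-fold rise (adjusted p = 2.33e-10). Apol7c, a member of the apolipoprotein L family, went from 23.5, 31.5 and 22.1 CPM to 1170, 1310 and 1030 CPM, 45.3-fold higher. Cfb, complement factor B of the alternative pathway, rose 41.7-fold, from 37.9, 32.1 and 26.1 CPM to 1310, 1230 and 1460 CPM. These genes lead among called protein-coding genes at an ample level (mean log2 CPM of at least 4) and without overlap of the groups. Within that scope the next 4 by size were all antiviral effectors, Ifit3 (40.8-fold), Oasl2 (39.9-fold), Oas3 (33.1-fold) and Oasl1 (30.2-fold), with edgeR adjusted p between 7.13e-16 and 9.08e-09.

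Il1r2, the decoy receptor that captures interleukin-1, fell most among genes at an ample level. It was at 418, 477 and 418 CPM without treatment and at 6.62, 7.19 and 5.5 CPM at 12 h, 69.6-fold lower (log2 change -6.12 ± 0.174, edgeR adjusted p = 3.14e-14). Clec10a, a galactose-type lectin of alternatively activated macrophages, was at 87.1, 113 and 123 CPM and then at 3.31, 2.35 and 2.65 CPM, 38.2-fold lower. Thbs1, the matrix protein thrombospondin-1, dropped from between 1960 and 2590 CPM to between 177 and 230 CPM, 11.3-fold. Plet1 fell 12.6-fold, the vitamin D receptor gene Vdr 12-fold, the neutrophil granule gene Ltf 11.9-fold, the interferon-induced transmembrane gene Ifitm1 11.2-fold and the cAMP-response modulator Crem 9.41-fold. In each of these 8 genes all 3 libraries of the isotype group lay under all 3 untreated libraries, which was a condition of their choice.

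**Figure D1:**
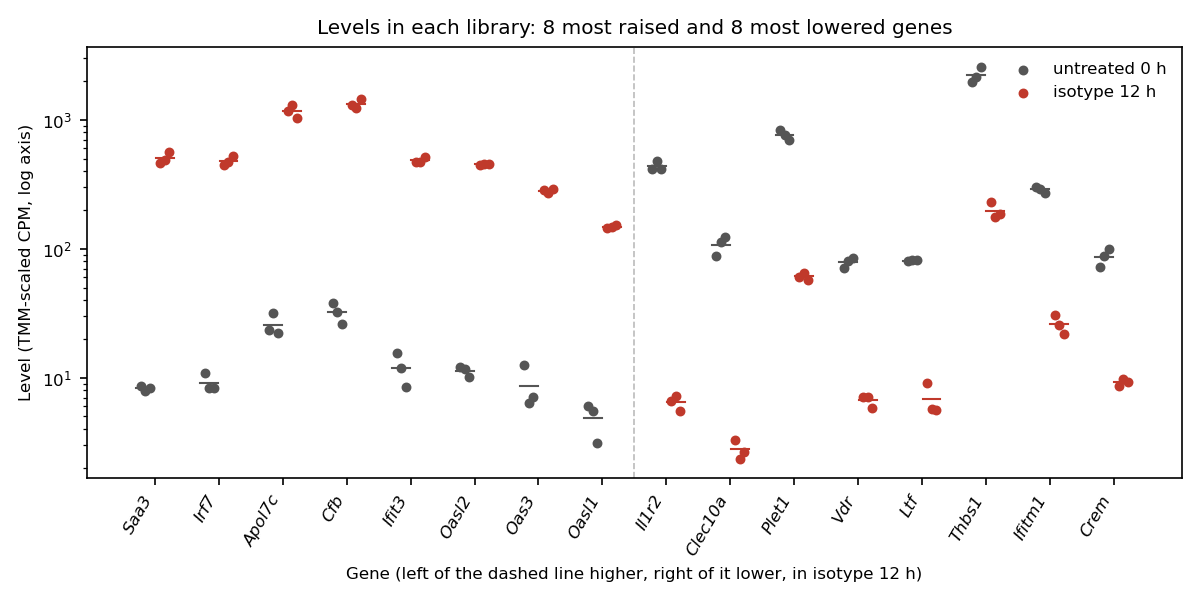
TMM-scaled CPM (log axis) in each of the 3 untreated libraries (grey) and the 3 isotype 12 h libraries (red) for the 8 called genes with the largest rise and the 8 with the largest drop among protein-coding genes at an ample level, with a short bar at each group mean. Groups without overlap were a condition of the choice. The genes run from Saa3 at 7.82 to 8.55 against 461 to 565 CPM to Crem at 71.6 to 99 against 8.64 to 9.68 CPM.

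The listed antiviral interferon-stimulated genes that were tested all rose. Their list was chosen with earlier results of these data known, as were the other lists, and Ifitm1, which fell, is not on it. All 34 members tested of the 35 listed were higher at 12 h, with a median log2 fold change of 3.58 against 0.03 over all genes, and their summed level was 11400 to 11800 CPM per library against 1170 to 1420 CPM without treatment. The smallest rise among them was that of Samhd1, an enzyme that breaks down nucleotides, at 1.38 on the log2 scale. The largest was that of Ifi44, at 1.36, 0.736 and 0.327 CPM without treatment and 75.3, 67.5 and 76.7 CPM at 12 h, 93.6-fold (adjusted p = 3.86e-11). Ifit3, which binds foreign RNA together with its relatives, had 15.4, 11.9 and 8.5 CPM and then 471, 467 and 517 CPM. Chosen after their values were seen, Isg15, a ubiquitin-like modifier, stood at 17.2 ± 2.31 and 451 ± 39.7 CPM (n = 3 each), and Rsad2, the antiviral enzyme viperin, at 48.2 ± 8.83 and 783 ± 5.79 CPM.

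Promoters are shown for those 4 of the 8 raised genes named first whose RefSeq window holds the interferon-stimulated response element, a sequence known from the promoters of many interferon-stimulated genes. Each is the 250 bases before the start of transcription in RefSeq (GRCm38.p6), written 5′ to 3′ on the gene's strand, with capitals for GAAA, any 2 bases and GAAA again, on either strand.
Saa3 (chr7:46715677-46715926, minus strand): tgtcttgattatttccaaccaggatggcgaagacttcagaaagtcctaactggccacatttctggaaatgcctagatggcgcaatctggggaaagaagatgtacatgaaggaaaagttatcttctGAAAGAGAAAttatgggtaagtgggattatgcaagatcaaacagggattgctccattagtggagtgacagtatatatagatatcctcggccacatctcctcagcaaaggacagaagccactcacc
Apol7c (chr15:77533316-77533565, minus strand): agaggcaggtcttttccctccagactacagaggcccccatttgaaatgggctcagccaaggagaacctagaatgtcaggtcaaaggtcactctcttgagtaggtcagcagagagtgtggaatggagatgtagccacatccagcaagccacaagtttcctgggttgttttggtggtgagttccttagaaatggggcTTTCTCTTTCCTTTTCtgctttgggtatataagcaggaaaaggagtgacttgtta
Ifit3 (chr19:34583279-34583528, plus strand): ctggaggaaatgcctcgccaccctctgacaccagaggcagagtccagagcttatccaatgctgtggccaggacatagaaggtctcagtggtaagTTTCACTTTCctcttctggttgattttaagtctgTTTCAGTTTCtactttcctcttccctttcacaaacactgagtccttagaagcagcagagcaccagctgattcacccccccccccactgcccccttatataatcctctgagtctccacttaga
Oas3 (chr5:120777660-120777909, minus strand): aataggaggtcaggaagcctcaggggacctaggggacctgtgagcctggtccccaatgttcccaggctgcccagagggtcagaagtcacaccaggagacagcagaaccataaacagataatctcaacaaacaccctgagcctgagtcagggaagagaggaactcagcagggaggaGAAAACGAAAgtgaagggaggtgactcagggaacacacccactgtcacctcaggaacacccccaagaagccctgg
Ifit3 holds the element at 156 and again at 122 bases before its start, Oas3 at 75, Saa3 at 125, and Apol7c has overlapping copies at 55 and 49. Of the 35 antiviral genes listed 28 matched a RefSeq window of 300 bases, and 12 of them (42.9%) held the element, against 3.99% of the 27025 genes in the RefSeq table. Of the 8 genes at an ample level named for their rise 7 matched and 4 held it. Of the 5 matched among the 8 named for their drop 0 held it. A match describes these letters in this window and is no measured binding.

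Upstream of these effectors, 13 of the 21 tested genes for interferon ligands, receptors and signalling rose and 1 fell (median 0.62). Usp18, which removes ISG15 and dampens receptor signalling, was at 25.9, 21.3 and 17.7 CPM and then at 199, 194 and 191 CPM, 9.01-fold higher (adjusted p = 3.21e-13). Ifngr1, the ligand-binding chain of the interferon-gamma receptor, fell 2.03-fold, from 82.5, 110 and 102 CPM to 51.5, 46.2 and 46.9 CPM. Transcripts of the ligand itself were scarce: Ifnb1, interferon beta, had 0.291, 0.046 and 0 CPM without treatment and 0.224, 0.147 and 0.242 CPM at 12 h. These levels overlap and lie around or under that of 3 counts, except in the third isotype 12 h library, where 3 counts stand for 0.045 CPM. The change did not pass the test (log2 1.18 ± 0.775, edgeR adjusted p = 0.246). Without the first untreated library it passed (log2 2.64, adjusted p = 0.0348).

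Sensors of nucleic acids moved with the effectors, 12 of 16 higher and 2 lower (median 1.26). Zbp1, a sensor of Z-form nucleic acids, was at 12.2, 11.6 and 8.26 CPM and then at 222, 224 and 234 CPM, 21.1-fold higher (adjusted p = 1.02e-13). Ifi205 of the Ifi200 family rose 15.1-fold. The lower ones were Tlr9, the endosomal receptor for unmethylated DNA, which fell 1.86-fold, and Trim25, a ubiquitin ligase of the RIG-I pathway, which fell 1.55-fold.

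The guanylate-binding proteins and immunity-related GTPases, which attack vacuoles that hold pathogens, rose in 14 of 18 members and fell in 0 (median 2.66). Gbp6 went from 6.9, 5.84 and 4 CPM to 141, 134 and 143 CPM, 25-fold (adjusted p = 1.23e-12), and Iigp1 from at most 0.572 CPM to at least 10.7 CPM, 21.9-fold. The 4 that did not pass, named after their values were seen, were Gbp8, Gbp10, Gbp11 and Tgtp1, with log2 changes between -1.08 and 1.27. Reads of such families can be split between near-identical copies by the quantifier, so single members are less certain than the list.

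**Figure D2:**
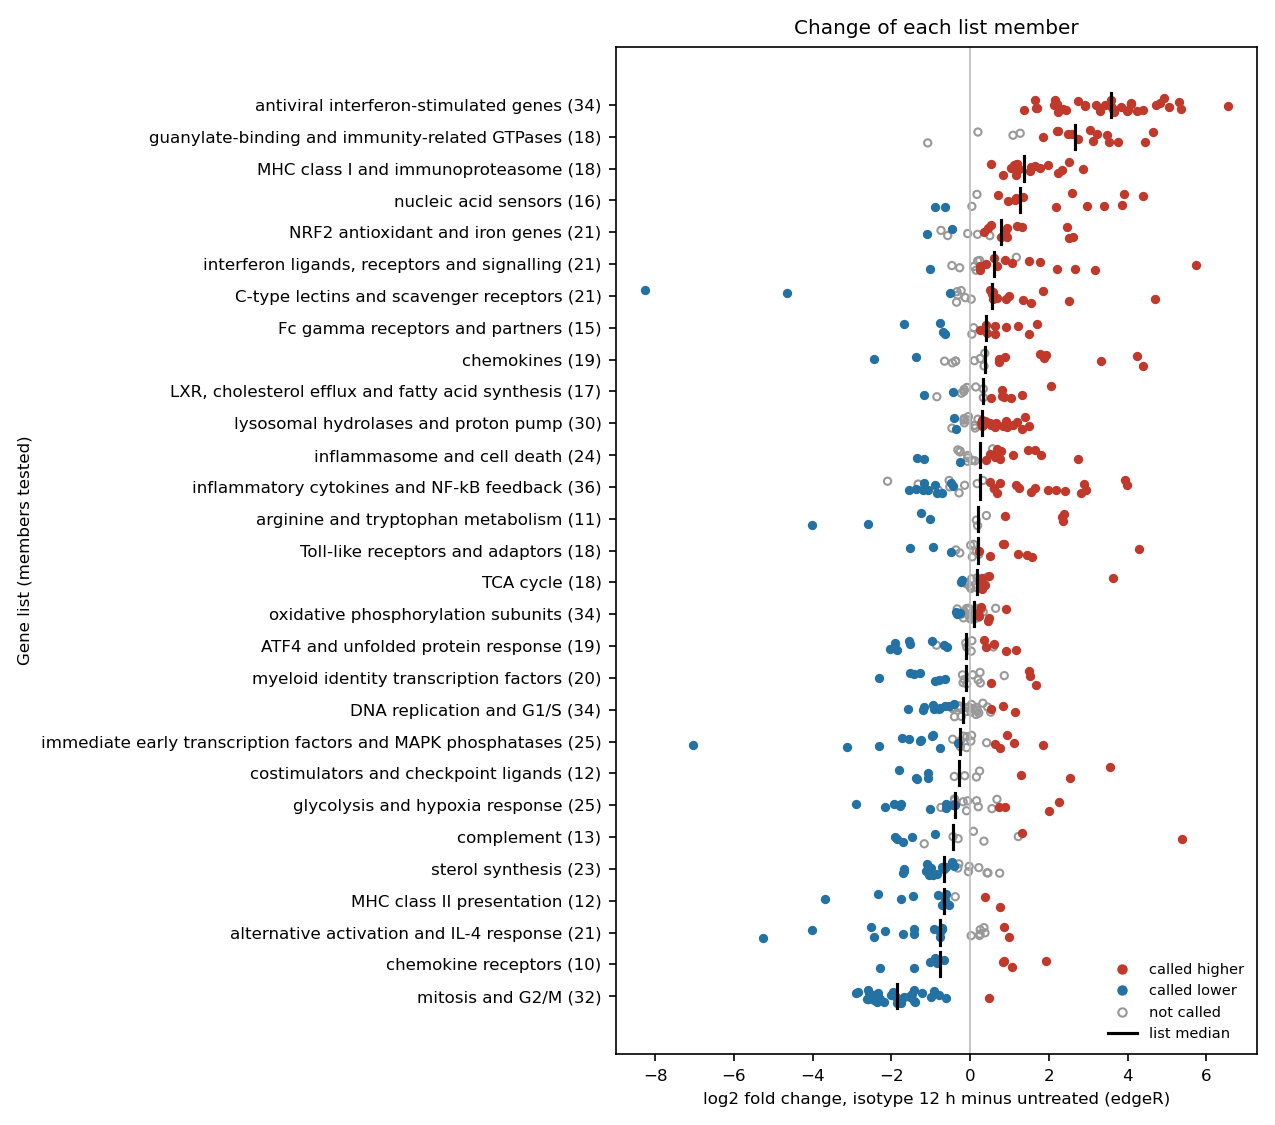
Log2 fold change (edgeR, isotype 12 h minus untreated) of every tested member of 29 gene lists, red for members called higher, blue for members called lower and open for those not called, with a black bar at each list's median. The antiviral list has its 34 members at 1.38 or above, while 31 of the 32 mitosis genes lie to the left of 0.

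Both arms of antigen presentation were measured, and their members did not move alike. All 18 genes of MHC class I and its peptide supply rose (median 1.38), led by Nlrc5, the transactivator of class I genes, at 19, 22.4 and 15.3 CPM and then 148, 132 and 136 CPM (7.3-fold, adjusted p = 4.41e-12). Tapbp, the chaperone tapasin that bridges class I and the peptide transporter, rose 5.71-fold. Of 12 MHC class II genes 9 fell and 2 rose (median -0.67). H2-Ob, a subunit of the H2-O regulator of class II loading, was at 47.3, 47.7 and 43.3 CPM and then at 3.98, 3.37 and 3.42 CPM, 12.8-fold lower (adjusted p = 7.2e-12), and H2-DMb2, of the loading chaperone H2-DM, fell 5.02-fold.

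The abundant class II chains fell less than these chaperones. Chosen after their values were seen, H2-Aa stood at 2880 ± 222 CPM without treatment and 1860 ± 88.9 CPM at 12 h, and the invariant chain Cd74 at 6800 ± 336 and 4450 ± 192 CPM, log2 changes of -0.63 and -0.61 (adjusted p = 3.07e-05 and 0.022, n = 3 each, edgeR). Ciita, the class II transactivator, did not pass the test (log2 -0.38, adjusted p = 0.196). The 2 that rose were the lysosomal thiol reductase gene Ifi30 (1.7-fold) and the protease gene Ctss (1.29-fold), which prepare antigen and the invariant chain.

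Costimulatory ligands were divided, with 3 of 12 higher and 5 lower (median -0.27). Cd40, through which T cells license antigen-presenting cells, rose 5.85-fold, from 29.4, 29.5 and 25.3 CPM to 149, 184 and 160 CPM (adjusted p = 1.37e-08). Cd80, a ligand of CD28, fell 3.53-fold, from 56.2, 60.6 and 55.3 CPM to 16.4, 17 and 15.6 CPM (adjusted p = 1.25e-07). Tnfsf10, the death ligand TRAIL, rose 11.7-fold, and Tnfsf9, the 4-1BB ligand, fell 2.61-fold.

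Inflammatory cytokines and NF-kB feedback genes had 16 of 36 members higher and 10 lower (median 0.25, and -0.03 with a GC correction). Acod1, the enzyme that makes itaconate, was at 148, 133 and 112 CPM and then at 1880, 2050 and 2040 CPM, 15.2-fold higher (adjusted p = 1.4e-14). Il12a, a chain of interleukin-12, had 0, 0.184 and 0.0817 CPM without treatment, at most 4 counts in a library, and 1.57, 2.2 and 1.97 CPM at 12 h. Il6 rose 4.53-fold, from 1.85, 3.31 and 3.27 CPM to 12.2, 12.9 and 14 CPM (adjusted p = 2.91e-06), and Il1b 1.43-fold. Tnf was at 162, 154 and 165 CPM and at 141, 147 and 149 CPM, a log2 change of -0.14 ± 0.105 that did not pass (edgeR adjusted p = 0.309), although the groups do not overlap. After a correction for GC content it passed (log2 -0.22, adjusted p = 0.0385).

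Il10, the anti-inflammatory cytokine, had 0.0972, 0.184 and 0 CPM and then 0.505, 0.733 and 0.666 CPM, a rise that passed (adjusted p = 0.000916) from levels near the floor. When the libraries compared were thinned to the smallest total among them, it did not (edgeR adjusted p = 0.304). Il18, a cytokine activated by caspase-1, fell 2.95-fold and Osm, oncostatin M, 2.6-fold. The NF-kB inhibitor Nfkbia, chosen after its values were seen, stood at 359 ± 32.9 and 160 ± 10.9 CPM (log2 -1.16, adjusted p = 3.08e-05).

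Among chemokines 9 of 19 were higher and 2 lower (median 0.37). Cxcl3, which attracts neutrophils, was at 19.3, 16.9 and 19.4 CPM and then at 233, 416 and 514 CPM, 21-fold higher (adjusted p = 7.88e-10). Ccl5, which attracts T cells and monocytes, rose 18.9-fold, from 51.5, 40.5 and 45.9 CPM to 721, 942 and 937 CPM. Ccl17, a ligand of CCR4, fell 5.4-fold, from 892, 861 and 599 CPM to 160, 147 and 129 CPM, and Ccl6 2.61-fold. Ccl2, which recruits monocytes, was at 38.3, 40.4 and 34.2 CPM and then at 85.6, 61.5 and 40.2 CPM. It passed the test by a small margin (adjusted p = 0.0254), and not without the first isotype 12 h library (adjusted p = 0.178), with thinned counts (adjusted p = 0.0889) or without the first or the third untreated library (adjusted p = 0.0555 and 0.0856).

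Cxcl10, the interferon-inducible ligand of CXCR3, did not pass, while the listed antiviral interferon-stimulated genes rose. It was at 38, 36.6 and 26.6 CPM and then at 46.8, 43.4 and 39.2 CPM (log2 0.35 ± 0.146, edgeR adjusted p = 0.0625). It passed without the first untreated library (adjusted p = 0.0425), without the third isotype 12 h library (adjusted p = 0.0419) and after thinning (adjusted p = 0.0309). Chemokine receptors were lower in 6 of 10 and higher in 4 (median -0.76). Cxcr2, the neutrophil chemokine receptor, fell 4.92-fold, while Cx3cr1, the fractalkine receptor, rose 3.83-fold and Ccr7, which guides cells to lymph nodes, 2.08-fold.

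The genes of alternative activation, the state that interleukin-4 induces, fell in 13 of 21 members and rose in 2 (median -0.76). Arg1, arginase of the urea cycle, was at 39.8, 24.5 and 18.2 CPM and then at 2.41, 1.32 and 1.33 CPM, 16.2-fold lower (adjusted p = 4.55e-08). Clec10a and Ccl17, given above, belong to this list as well. The higher ones were the scavenger receptor gene Msr1 (1.99-fold) and the cytokine signalling inhibitor gene Socs2 (1.83-fold). Stat6, the factor that carries the interleukin-4 signal, was chosen after its values were seen and differed by 0.03 on the log2 scale (adjusted p = 0.858).

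The missing mannose receptor is itself a C-type lectin. Other lectins, scavenger receptors and receptors for dying cells were higher in 12 of 21 members and lower in 3 (median 0.55). Cd209a, the mouse counterpart of DC-SIGN, had 13.4, 19 and 15 CPM without treatment and 0.0561, 0 and 0.0454 CPM at 12 h, where the 3 libraries held at most 3 counts each and 4 in all. Over the group the ratio was 376 with a counting interval of 146 to 1390. Cd209d fell 25-fold (adjusted p = 7.19e-07). Mrc2, the collagen receptor of the mannose receptor family, was at 0, 0.138 and 0.0817 CPM and then at 2.92, 2.64 and 2.01 CPM, a ratio of 24.8 with a counting interval of 9.53 to 91.8 over 4 counts in the untreated group. Marco, a scavenger receptor for bacteria, rose 5.67-fold, from 33.6, 14.2 and 17.3 CPM to 137, 87.7 and 139 CPM (adjusted p = 1.29e-05).

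Fc gamma receptors, which bind the Fc region of IgG, and their partners rose in 9 of 15 members and fell in 4 (median 0.39). The low-affinity activating receptor Fcgr3 fell 1.7-fold, from 396, 451 and 390 CPM to 267, 242 and 218 CPM (adjusted p = 0.000232). The neonatal Fc receptor gene Fcgrt, which recycles IgG, fell 3.2-fold. Trim21, an intracellular antibody receptor, rose 2.83-fold. Of the other receptors, chosen after their values were seen, the high-affinity Fcgr1 was higher (log2 0.92, adjusted p = 1.13e-06) and the inhibitory Fcgr2b lower (log2 -0.64, adjusted p = 2.65e-05), both by edgeR.

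Toll-like receptors and adaptors had 8 of 18 members higher and 3 lower (median 0.19). Tlr1, which pairs with TLR2 on lipopeptides, was at 2.23, 2.76 and 2.04 CPM and then at 40.7, 49.4 and 49.7 CPM, 19.4-fold higher (adjusted p = 2.83e-12). Tlr2 itself fell 1.92-fold, from 581, 644 and 678 CPM to 319, 344 and 326 CPM (adjusted p = 2.87e-07). Cd180 rose 2.99-fold and Ly86, which encodes MD-1, the partner of CD180, fell 2.89-fold. In the complement list 5 of 13 fell and 2 rose (median -0.44), the latter Cfb, above, and C3 (2.49-fold). C1qa of the classical pathway fell 3.75-fold and the anaphylatoxin receptor C5ar2 3.63-fold.

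Of the inflammasome and cell death genes 11 of 24 rose and 3 fell (median 0.26). Mlkl, the executor of necroptosis, was at 10.1, 10.7 and 9.24 CPM and then at 67.2, 62.2 and 71.4 CPM, 6.68-fold higher (adjusted p = 1.04e-11). Casp1, the inflammasome protease, rose 3.5-fold. The sensor Nlrp3 fell 2.53-fold, from 166, 182 and 189 CPM to 70.4, 71.1 and 70.9 CPM (adjusted p = 1.59e-09), and Pmaip1, the death protein NOXA, 2.24-fold.

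Genes of mitosis and the G2/M phase fell almost throughout, with 31 of 32 lower and 1 higher (median -1.87). Their summed level was 489 to 749 CPM per untreated library and 172 to 213 CPM per isotype 12 h library, so the groups do not overlap. Cenpa, the centromere histone, was at 107, 107 and 108 CPM and then at 15.7, 13.9 and 13.2 CPM, 7.52-fold lower (adjusted p = 1.81e-10). Ccnb2, cyclin B2, fell 7.18-fold and Mki67, the proliferation marker Ki-67, 2.86-fold, from 124, 108 and 80 CPM to 42.6, 34.3 and 32.1 CPM (adjusted p = 6.61e-05). The exception was the checkpoint kinase gene Bub1b, at 15.3, 14.1 and 10.4 CPM and then 18.5, 17.9 and 19.2 CPM (adjusted p = 0.0387). It did not pass with DESeq2 (adjusted p = 0.0548) and lost its call in 10 of the 15 alternatives in all.

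DNA replication and G1/S genes, from the phase before, had 10 of 34 lower and 3 higher (median -0.17), with E2f2 falling 3.01-fold, the ribonucleotide reductase gene Rrm2 2.3-fold, and cyclin D1 (Ccnd1) rising 2.22-fold. Markers of granulocytes and their precursors were lower over the same libraries: 9 of 10 fell (median -2.62), and their summed level was 1810 to 1990 CPM without treatment and 637 to 749 CPM at 12 h. Elane, Mpo and Prtn3, made by early granulocyte precursors, were at 5.45 ± 2.04, 6.64 ± 2.14 and 4.38 ± 2.37 CPM and at 0.566 ± 0.273, 0.692 ± 0.374 and 0.708 ± 0.361 CPM (n = 3). Whether such cells took part in the lower mitosis genes was not tested. In bulk RNA, fewer cells of a type and less RNA of its genes per cell cannot be told apart.

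The promoters of Ccnb2 and Mki67 are shown because the cell cycle genes homology region, TTTGAA, is the binding element of the complex that holds mitotic genes silent in resting cells. They are the 250 bases before the RefSeq start (GRCm38.p6), 5′ to 3′ on the gene's strand, with TTTGAA on either strand in capitals.
Ccnb2 (chr9:70421555-70421804, minus strand): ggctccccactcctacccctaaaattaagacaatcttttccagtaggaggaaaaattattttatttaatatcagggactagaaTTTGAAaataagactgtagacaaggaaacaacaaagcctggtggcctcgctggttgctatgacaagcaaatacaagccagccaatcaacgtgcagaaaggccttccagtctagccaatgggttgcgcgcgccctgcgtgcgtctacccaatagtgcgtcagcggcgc
Mki67 (chr7:135716380-135716629, minus strand): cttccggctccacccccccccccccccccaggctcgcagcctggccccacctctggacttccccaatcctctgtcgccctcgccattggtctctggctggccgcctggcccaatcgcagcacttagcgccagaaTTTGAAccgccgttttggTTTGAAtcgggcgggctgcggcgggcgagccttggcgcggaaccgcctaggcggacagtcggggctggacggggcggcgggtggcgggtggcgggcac
Ccnb2 holds it at 167 bases before its start, with another match past the start that is not printed, and Mki67 at 116 and 98. Of the 26 mitosis genes matched to RefSeq 20 (76.9%) held it in the window of 300 bases, against 20.2% of all genes in the table. The same letters were found in 9 of the 28 matched antiviral genes (32.1%), which rose. They were also in 3 of the 26 matched replication genes (11.5%) and 1 of the 16 matched sterol genes (6.25%). The E2F element TTTGGCGC was found in 6 of 26 matched replication genes (23.1%), in 0 of the 26 mitosis genes and in 0.585% of all genes.

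**Figure D3:**
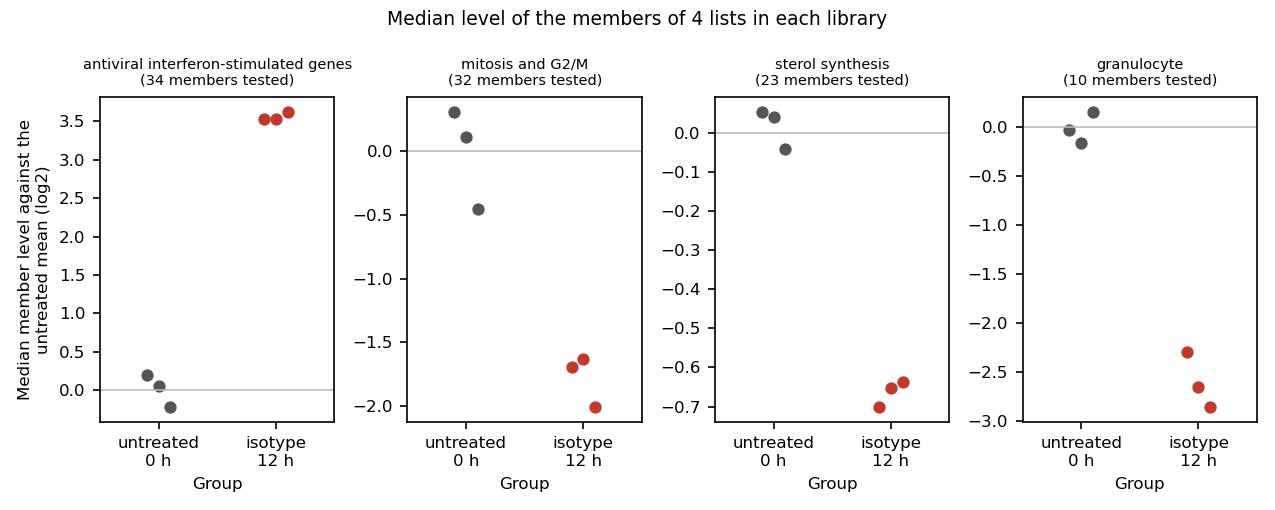
Median log2 level of the tested members of 4 lists in each library against the untreated mean, with untreated libraries in grey and isotype 12 h libraries in red. The isotype 12 h libraries lie at 3.53 to 3.62 for antiviral genes, -2.01 to -1.63 for mitosis genes, -0.70 to -0.64 for sterol synthesis genes and -2.85 to -2.29 for granulocyte markers, and no panel has overlapping groups.

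Sterol synthesis genes, which are switched on by SREBP2 when cellular cholesterol is low, fell in 15 of 23 members and rose in 0 (median -0.67). Hmgcs1, which makes the precursor of mevalonate, was at 735, 758 and 717 CPM and then at 239, 223 and 228 CPM, 3.2-fold lower (adjusted p = 3.45e-10). Stard4, a sterol carrier, fell 3.27-fold and Insig1, which retains SREBP in the endoplasmic reticulum, 3.23-fold. With a GC correction, and in a fit of only the 6 libraries, 2 members were called higher.

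The Hmgcs1 promoter is shown for its sterol regulatory element, TCACCCCAC, in capitals in the 250 bases before the RefSeq start (GRCm38.p6, 5′ to 3′).
Hmgcs1 (chr13:119690101-119690350, plus strand): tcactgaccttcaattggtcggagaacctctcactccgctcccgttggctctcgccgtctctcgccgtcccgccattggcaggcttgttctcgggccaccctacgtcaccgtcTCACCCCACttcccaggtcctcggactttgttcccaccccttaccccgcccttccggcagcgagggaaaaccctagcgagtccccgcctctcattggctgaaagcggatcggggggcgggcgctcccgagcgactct
It lies at 137 bases before the start, in 1 of the 16 matched sterol genes (6.25%) and in 0.614% of all genes in the table. Variants of the element that differ from these letters were not searched.

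The genes of cholesterol efflux and fatty acid synthesis under the sterol receptor LXR had 7 of 17 higher and 2 lower (median 0.34, and -0.03 with the authors' scaling factors). Me1, malic enzyme, which supplies NADPH, rose 4.17-fold and Nr1h3, which encodes LXR alpha, 2.47-fold, while the elongase gene Elovl6 fell 2.24-fold and the desaturase gene Scd2 1.36-fold. Lysosomal hydrolases and proton pump subunits rose in 17 of 30 members and fell in 2 (median 0.31). Ctsk, cathepsin K, was at 78.7, 72.3 and 76 CPM and then at 174, 185 and 237 CPM, 2.63-fold higher (adjusted p = 1.41e-07), and Gaa, the glycogen-degrading acid glucosidase, rose 2.82-fold (adjusted p = 0.0108, and 0.0539 without the second untreated library). The protease gene Lgmn fell 1.28-fold and the pump subunit gene Atp6v0d2 1.33-fold. Atp6v0d2 (adjusted p = 0.0256) did not pass without any 1 of the second and the third untreated and the 3 isotype 12 h libraries (adjusted p = 0.0653 to 0.116).

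Glycolysis and hypoxia genes fell in 10 of 25 members and rose in 4 (median -0.40). Vegfa, the vascular growth factor under control of hypoxia-inducible factors, was at 107, 102 and 136 CPM and then at 15, 14.1 and 17 CPM, 7.4-fold lower (adjusted p = 5.05e-08), and the glucose transporter gene Slc2a3 fell 4.44-fold. Pfkfb3, which makes the activator of phosphofructokinase, rose 4.77-fold, from 84.9, 85.7 and 82.7 CPM to 391, 439 and 379 CPM (adjusted p = 3.87e-12), and the hexokinase gene Hk3 4.02-fold. With a GC correction 7 members were called higher.

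The mitochondrial lists moved little. Of 34 subunits of oxidative phosphorylation 6 were higher and 3 lower (median 0.11), with log2 changes of -0.36 to 0.92, and Sdhb, of succinate dehydrogenase, led at 1.89-fold (adjusted p = 0.000476). Leaving out the first or the third untreated or the third isotype 12 h library left 3 higher, and 0 were lower without the second untreated or the first or second isotype 12 h library. In the TCA cycle 6 of 18 rose and 2 fell (median 0.17). Pcx, pyruvate carboxylase, stood apart, at 4.18, 2.53 and 2.29 CPM and then 29.6, 38.3 and 41.2 CPM, 12.4-fold higher (adjusted p = 5e-06). Without the third untreated library 3 of these genes were higher, and without any 1 isotype 12 h library 0 were lower.

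Arginine and tryptophan metabolism had 4 of 11 genes higher and 4 lower (median 0.19). Ass1, which rebuilds arginine from citrulline, rose 5.15-fold, from 314, 309 and 257 CPM to 1450, 1490 and 1590 CPM (adjusted p = 9.29e-12), and Ido2, of the kynurenine pathway, 5.22-fold. Kmo, a later enzyme of that pathway, fell 6.09-fold, and Arg1 fell as given above.

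NRF2 antioxidant and iron genes rose in 13 of 21 members and fell in 2 (median 0.79). Nqo1, a quinone reductase and standard NRF2 target, was at 25.8, 29.5 and 26.8 CPM and then at 132, 167 and 172 CPM, 5.71-fold higher (adjusted p = 4.51e-11), and Slc11a1, the phagosomal metal transporter NRAMP1, rose 6.09-fold. The transferrin receptor gene Tfrc fell 2.14-fold and Nfe2l2, which encodes NRF2, 1.38-fold. In the ATF4 and unfolded protein response list 8 of 19 fell and 5 rose (median -0.11). Asns, asparagine synthetase, fell 4.11-fold, from 47.5, 53.3 and 50.4 CPM to 13.8, 12.3 and 10.8 CPM (adjusted p = 1.99e-08), and Herpud1, of protein degradation in the endoplasmic reticulum, 3.78-fold. Sdf2l1, an endoplasmic reticulum co-chaperone, rose 2.25-fold and the amino acid transporter chain Slc3a2 1.88-fold.

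Immediate early factors and the MAP kinase phosphatases that they induce were lower in 11 of 25 members and higher in 5 (median -0.25). Fosb, of the AP-1 family, was at 15, 15 and 18.9 CPM and then at 0.168, 0.147 and 0.0909 CPM, where the libraries held 1 to 6 counts (adjusted p = 4.1e-08). Egr3 fell 8.68-fold. The phosphatase genes Dusp4 and Dusp6 rose 3.6-fold and 2.18-fold.

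The transcription factors of myeloid identity were lower in 7 of 20 and higher in 4 (median -0.12). That median turned to 0.03 without the first untreated library and to 0.06 without the first isotype 12 h library. Mitf, of the family that drives lysosome genes, rose 3.18-fold, from 29.7, 31.9 and 29 CPM to 101, 91 and 96.4 CPM (adjusted p = 2.52e-10). Nr4a1, an orphan nuclear receptor, fell 4.98-fold, and Cebpe, of granulocyte maturation, 2.87-fold (adjusted p = 0.0306). The call of Cebpe was lost without any 1 library but the second untreated one (adjusted p = 0.0643 to 0.123).

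The markers given here with values were chosen after these were seen. Among 10 macrophage markers 5 rose, led by Adgre1 (log2 1.5, adjusted p = 3.68e-08), and 1, C1qa, fell, while Lyz2, lysozyme M, did not pass at 22000 ± 546 and 20600 ± 1000 CPM (log2 -0.09, adjusted p = 0.425). Of 10 dendritic cell markers 4 rose and 3 fell. Flt3, the receptor for a dendritic cell growth factor, stood at 2.67 ± 0.657 and 28.8 ± 1.75 CPM, and Fscn1, the actin bundler of mature dendritic cells, at 68 ± 10.8 and 661 ± 86.7 CPM (n = 3). Zbtb46, a factor of the dendritic lineage, was lower (log2 -1.04, adjusted p = 1.8e-07), as was Cd209a, above.

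Of 7 genes that mark alveolar-type macrophages grown under GM-CSF, 6 fell and 1 rose (median -0.99). Car4, a carbonic anhydrase, stood at 172 ± 18.5 and 31.2 ± 3.51 CPM, and Pparg, the nuclear receptor that sets this type, at 29.6 ± 2.59 and 11 ± 1.34 CPM. The exception was Marco, above. Mast cell and basophil markers fell in 5 of 7, from a sum of 54.6 to 56.2 CPM to one of 19.4 to 23.8 CPM per library. B cell markers, at 25.4 to 42.5 CPM in sum without treatment and 12.3 to 18.5 CPM at 12 h, fell in 3 of 5. Markers of plasmacytoid dendritic cells, the main producers of type I interferon in blood, went from 83.9 to 125 CPM in sum to 499 to 781 CPM. Most of that sum was Bst2, tetherin, which many cell types raise in answer to interferon, at 106, 60.2 and 78.8 CPM and then at 475, 620 and 759 CPM (adjusted p = 5.03e-07). Siglech, the lectin that defines these cells, was at 1.46, 0.92 and 1.55 CPM and then at 0.561, 0 and 0.257 CPM and fell (adjusted p = 0.00984), and the other 3 tested markers did not pass. The part of these other cells in the lower granulocyte-type, alternative activation and chemokine receptor genes was not tested.

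**Figure D4:**
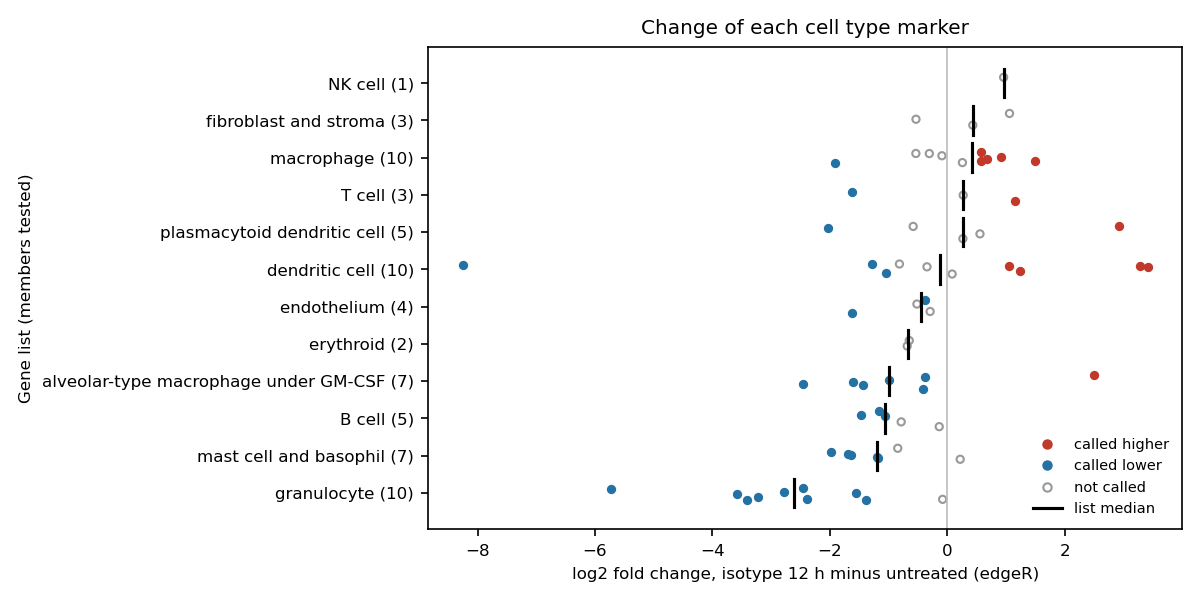
Log2 fold change (edgeR, isotype 12 h minus untreated) of each tested marker of 12 cell types, red for called higher, blue for called lower, open for not called, with a bar at each median. Granulocyte markers lie lowest, with a median of -2.62, and the leftmost point, Cd209a, is a fitted value from at most 3 counts per isotype 12 h library.

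The study also treated cells with the isotype control for 4 h and 24 h, 3 libraries each. The comparisons of each time with untreated cells share the 3 untreated libraries, so the change over time was tested between isotype libraries directly. Between 4 and 12 h 4737 genes changed (35.2%), 2143 higher (15.9%) and 2594 lower (19.3%) at 12 h. Between 12 and 24 h 2247 genes changed (16.7%), 969 higher (7.19%) and 1278 lower (9.49%) at 24 h. In the latter the balance turned to 1220 higher and 1065 lower with the scaling factors of DESeq2's method (RLE) in edgeR.

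The isotype 4 h libraries stood apart from one another. The 10% of genes with the highest GC content were set against the 10% with the lowest, relative to the mean of all 21 libraries. This difference was -0.85, -1.64 and 0.66 on the log2 scale in the 3 libraries at 4 h. It was 0.60 to 0.84 in those at 12 h, and 0.83, 0.05 and 0.47 in the untreated ones. Levels correlated between libraries of a group at 0.920 to 0.964 at 4 h and at 0.981 to 0.987 at 12 h. Of the 4737 genes that changed between these times 3422 (72.2%) were also called after a correction for GC content.

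Most cytokine genes were lower at 12 h than at 4 h. Of the 36 inflammatory genes 25 were lower and 0 higher at 12 h than at 4 h (median -0.98), and 24 lower and 0 higher at 24 h than at 12 h (median -1.07). Tnf was at 1060 ± 170 CPM at 4 h (n = 3), between 141 and 149 CPM at 12 h and at 46.4 ± 4.11 CPM at 24 h. Cxcl10 ran the same course, with 502 ± 95.1 CPM at 4 h and 5.89 ± 0.359 CPM at 24 h, and Il6 with 133 ± 26.2 and 6.26 ± 0.794 CPM. The steps from 4 to 12 h were -2.86, -3.54 and -3.34 on the log2 scale (adjusted p of 5.35e-11, 1.64e-10 and 2.52e-08 by edgeR).

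The antiviral genes moved both ways between 4 and 12 h, with 13 of 34 higher and 13 lower at 12 h (median 0.07, and -0.01 with a GC correction), while 28 were lower and 0 higher at 24 h than at 12 h (median -0.72). Irf7 stood at 133 ± 62 CPM at 4 h and 314 ± 22.2 CPM at 24 h, and Ifit3 at 461 ± 59 and 208 ± 16.8 CPM. Of the MHC class I genes 12 of 18 were higher at 12 h than at 4 h and 0 lower (median 0.69), and 11 were lower and 0 higher at 24 h than at 12 h. With a GC correction 11 were higher and 2 lower at 12 h than at 4 h (median 0.36), a fit of only the 6 libraries called 6 higher, and 8 were higher without the first isotype 4 h library or the third isotype 12 h library. Tapbp was at 362, 295 and 616 CPM in the 3 libraries at 4 h. Saa3 was at 135 ± 39.9 CPM at 4 h, rose further by 12 h (log2 1.90, adjusted p = 8.75e-07) and was at 503 ± 43.1 CPM at 24 h, where it did not differ from 12 h beyond the test (adjusted p = 0.996).

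Sterol and mitosis genes mostly fell between 4 and 12 h. At 12 h 15 of 23 sterol genes were lower than at 4 h and 0 higher (median -1.21), and Hmgcs1, at 728 ± 55.5 CPM at 4 h, was at 165 ± 10.1 CPM at 24 h. Of the mitosis genes 24 of 32 were lower and 1 higher at 12 h than at 4 h (median -1.15), and 10 were higher and 0 lower at 24 h than at 12 h (median 0.66). That last count fell to between 0 and 7 when 1 library was left out, with 0 without the third isotype 12 h library or the first isotype 24 h library. Of the lysosomal genes 14 of 30 were higher and 1 lower at 12 h than at 4 h. A fit of only the libraries compared called 9 higher, and leaving out 1 library gave 10 to 17 higher. At 24 h 12 lysosomal genes were higher and 1 lower than at 12 h (7 higher without the second isotype 12 h library or the second isotype 24 h library). Thbs1 had its lowest level at 12 h: it was at 635 ± 17.3 CPM at 4 h and 595 ± 26.7 CPM at 24 h, and both steps passed the test (log2 -1.68 and 1.59, adjusted p = 4.69e-09 and 1.71e-08).

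**Figure D5:**
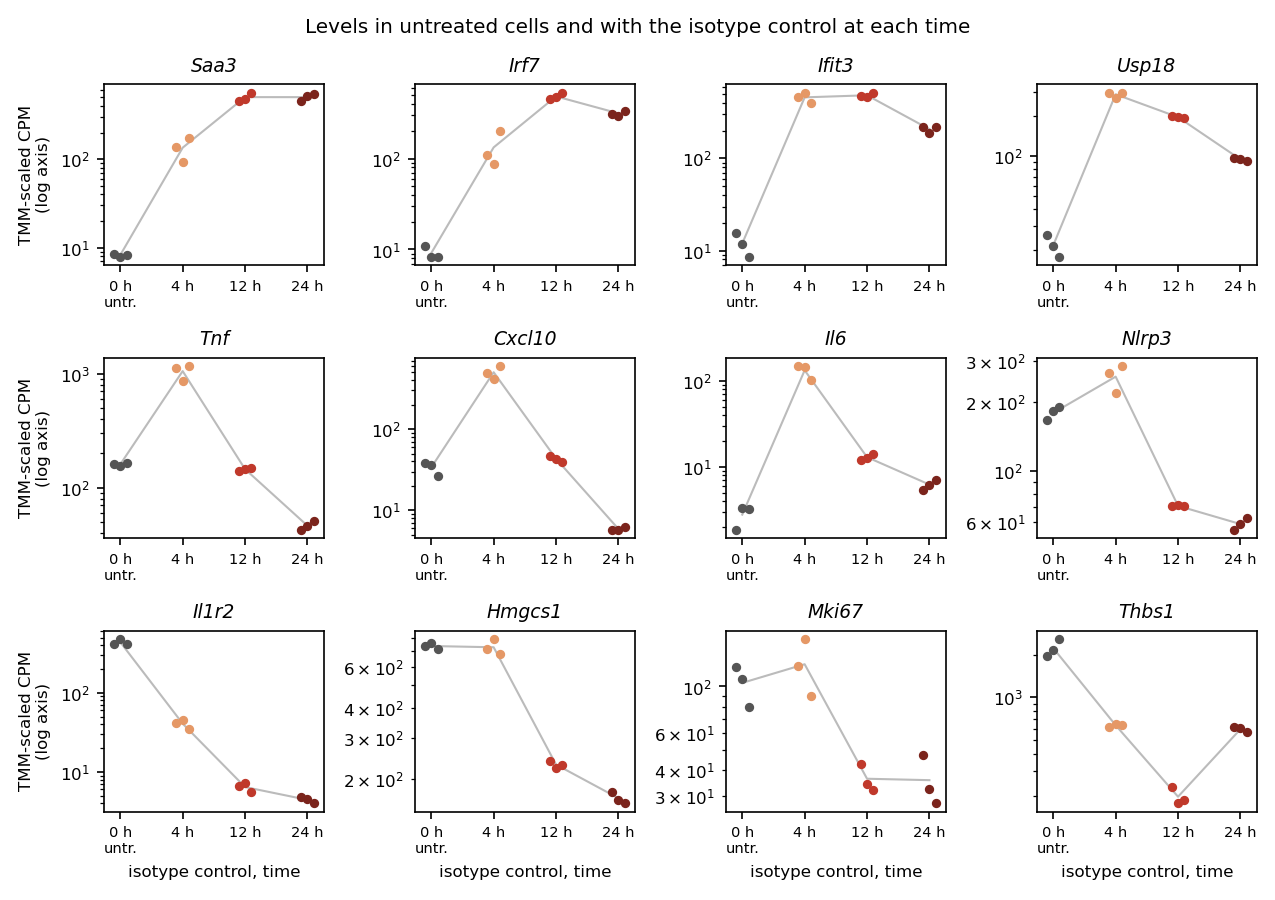
TMM-scaled CPM (log axis, range set per panel) of 12 named genes in the untreated libraries at 0 h and the isotype libraries at 4, 12 and 24 h, 1 point per library, with a line through the group means. Usp18, Tnf, Cxcl10, Il6 and Nlrp3 have their highest points at 4 h, while Saa3 stays at 456 to 565 CPM from 12 h on.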

How the data were processed

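Marrow-derived macrophages were sequenced from TruSeq libraries as single-end reads, per the labels' protocols, and the submitters' processing notes name CASAVA 1.8.2, kallisto 0.44.0, DESeq2 and the builds mm10 and GRCm38, with no role for each. The authors deposited a table they call raw, which holds whole numbers for 23250 genes and was treated as estimated counts per gene. Their second table holds a normalized signal that the authors deposited; only the factors between the 2 tables were used, as an alternative scaling. The analysis plan had assumed plain counts, and the planned test was retained, since it takes estimated counts too. Gene IDs were matched without version to GENCODE M21 (GRCm38), which gave 23206 symbols. One alias was resolved by hand, and 22 rows share a symbol with another row.

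Differences were tested by the quasi-likelihood F of edgeR 4.0.16 under R 4.3.3, fitted to the 21 libraries together with 1 coefficient for each group. Scaling was by TMM, and filterByExpr at a minimum of 10 counts left 13468 genes. All groups enter the fit because they then share 1 estimate of the spread. Calls use Benjamini-Hochberg adjusted p-values over all genes tested, with 0.05 as the threshold, and SE is the log2 fold change divided by the root of the quasi-likelihood F. The fit was tested on simulated data. The untreated and the isotype 12 h libraries correlated within their group at 0.975 to 0.987 on log2 CPM. Every pair of libraries of a group differed by more than counting noise, so no library was taken as a second deposit of another. Alternatives were RLE factors, no filter, a stricter filter, a block by replicate number, the authors' factors, a GC correction, a fit of only the libraries compared, thinning, DESeq2 1.42.0 and leaving out each library.

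Named genes are the 8 called protein-coding genes with the largest rise and the 8 with the largest drop, at a mean log2 CPM of at least 4 and without overlap of the groups. To these were added the 2 highest and 2 lowest called members of each of 29 pathway lists, and 15 genes fixed by name, in all 130, some of which are not reported here. The comparison, the lists and the rule were chosen with earlier results of these data known. The labels do not state a counting strand, and 36 of the 130 overlap a gene on the opposite strand (among them Irf7, Usp18, Oasl1, Il1r2, Thbs1, Cxcl10, Tapbp, Pcx, Mki67 and Hmgcs1). This overlap is of whole gene bodies, introns included, and whether the transcripts overlap was not checked. Where the transcripts of such a pair share sequence, their reads may not be told apart. Quantifiers of this kind can also misplace reads among near-identical members of families such as Oas, Gbp, H2, Ifi200, Fcgr and Cd209. Intervals and floors cover counting error only. Libraries treated with FcMR entered only the fit.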

Additional observations from a re-analysis of the deposited data

Results flagged for a closer look

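In 6 named genes the change against untreated cells at 12 h had the opposite sign to that at another time, both passing edgeR's test, and the direct test between the isotype libraries passed as well. Tnfsf9 was 1.71 higher than untreated on the log2 scale at 4 h and -1.39 at 12 h, a difference of -3.10 (adjusted p = 1.31e-09). Nlrp3 stood at 0.52 at 4 h and -1.34 at 12 h (difference -1.86, adjusted p = 3.13e-10), Elovl6 at 0.52 and -1.16 (difference -1.68, adjusted p = 9.32e-06) and Tlr2 at 0.46 and -0.94 (difference -1.40, adjusted p = 1.36e-08). Against 24 h, Fcgr3 was at -0.76 at 12 h and 0.54 at 24 h (difference -1.31, adjusted p = 4.16e-06), and Lgmn at -0.35 and 0.48 (difference -0.83, adjusted p = 1.91e-06). For Elovl6 the rise at 4 h passed by a small margin (edgeR adjusted p = 0.0464), and its levels at 4 h overlap the untreated ones. Each pair of values shares the 3 untreated libraries. With 3 libraries in each group, no test for a single deviating library was made.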

How the results depend on the processing

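For isotype 12 h against untreated the count of changed genes was 5602 and stayed within 1.5 times in all 15 alternatives, from 4577 without the third isotype 12 h library to 7221 with a GC correction. DESeq2 gave 5701, and leaving out 1 library gave 4577 to 5076 (2494 to 2771 higher, 2061 to 2364 lower). Of 1933 values of named genes under these alternatives 1869 kept direction and side of the threshold, 57 lost the call, 7 gained one and 0 turned. Medians that changed sign were those of LXR genes (-0.030 with the authors' factors), inflammatory genes (-0.032 with a GC correction) and myeloid factors (-0.218 to 0.062 with 1 library left out, above 0 without the first untreated or the first isotype 12 h library).

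The counts between isotype times were less stable, and the cause was not tested. For 12 h against 4 h (4737), no filter left 1507 lower genes and moved the share called higher from 45.2% to 60.9%, and a fit of only these libraries gave 2689 (1206 higher, 1483 lower). Leaving out 1 library gave 3126 to 6739 (1579 to 3746 higher, 1466 to 2993 lower), lowest without the second and highest without the third isotype 4 h library. For 24 h against 12 h (2247), a GC correction gave 3712 (1882 higher) and a fit of only these libraries 5794 (2576 higher, 3218 lower). Leaving out 1 library gave 1401 to 1675 (604 to 697 higher, 766 to 980 lower), lowest without the third isotype 12 h library, and DESeq2 1377 higher and 1264 lower against 969 and 1278.

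The labels give replicate numbers 1 to 3 in each group. Fitted with a block for that number, 5753 genes changed at 12 h against untreated, 5027 against 4 h and 2438 between 12 and 24 h. Deviations of same-numbered libraries correlated at -0.11, -0.02 and 0.05, so the numbers were not taken as pairs. Depth limits what is called: thinning the libraries compared to their smallest total gave 4770 changed genes. It took the calls of Bub1b, Ccl2, Cebpe, Gfi1, Il10 and Pdhb among the named genes and gave one to Cxcl10. The alternatives for lists between isotype times were chosen after seeing the data.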
